A study of Bos taurus with 18 samples.

Results

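The gene ARID1A gave 1 circular RNA (circRNA) among the 3914 of the deposited table, and 12 of the 5966 m6A peaks called on circRNAs, 2 in each of 6 libraries. Both were taken by the gene name in the authors' tables. ARID1A was chosen by measured values, the junction reads of its circRNA and its strong peaks in control and E. coli wells with none in S. aureus wells, so its junction reads and peaks are described here without a test. The cells were MAC-T, a bovine mammary epithelial line that was made immortal, seeded at 200000 cells per well and grown for 12 h. Control wells received no bacteria, and the others were kept for 24 h with S. aureus or E. coli killed by heat, each at 10 bacteria per cell. Each group had 3 wells, and each well gave an input library and a library immunoprecipitated with an antibody against m6A (IP), 18 libraries in all. All wells held the same cell line, bacteria were dead when added, and a well is a culture of that line and not an animal.

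ARID1A encodes the large DNA-binding subunit of the BAF complex, a SWI/SNF machine that uses ATP to move nucleosomes and so opens enhancers and promoters. In human breast cancer it is among the recurrently mutated chromatin genes. An exonic circRNA forms when the end of a downstream exon is spliced back to the start of an upstream exon, and reads that cross this back-splice junction count the circle. m6A is a methyl group added to adenosines of RNA, mainly by the METTL3 and METTL14 writer complex, and an m6A peak is a region where the IP library held more fragments than the input library.

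The ARID1A circRNA was an exonic circle on the minus strand of chromosome 2 from 126448967 to 126452456 of the bovine genome bosTau9. It spanned 3490 bases of the genome, and the authors predicted a spliced length of 783 bases, longer than 69.6% of the 2660 exonic circRNAs, whose median was 533 bases. It was the only circle listed for ARID1A, as for 1425 of the 2220 host genes (64.2%). Its 2 peaks lay apart, and every library that had them had the same borders. The first, called here the junction-side peak, covered 126452244 to 126452456, the 213 bases at the upstream end of the circle, where its first exon begins and the back-splice joins. The other, the inner peak, covered 126450274 to 126450726, a stretch of 453 bases that began 1517 bases further along the strand. The downstream end of the circle lay another 1307 bases beyond the inner peak.

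**Figure D1:**
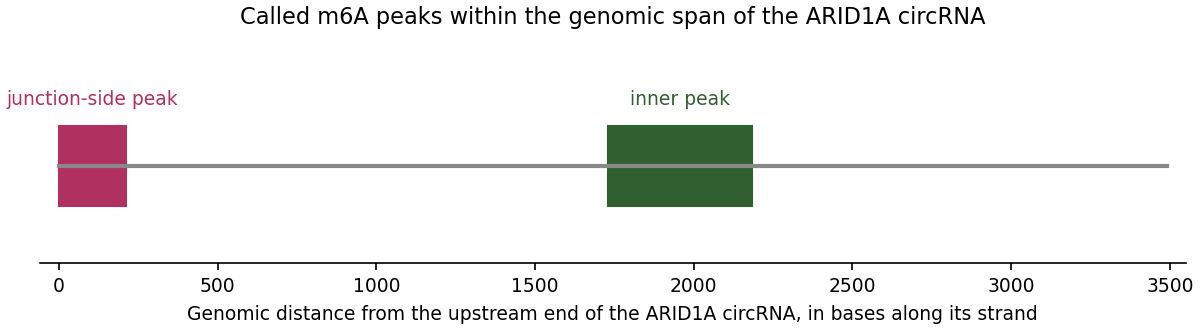
Position of the 2 called m6A peaks of the ARID1A circRNA. The horizontal axis is the genomic distance in bases from the upstream end of the circle along its strand, the grey line is the span of 3490 bases, and the boxes are the junction-side peak (213 bases) and the inner peak (453 bases), drawn to scale. The junction-side peak begins at the first base of the circle.

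The peaks, 666 bases in sum, equalled 85.1% of the predicted spliced length and left 117 bases, if both lay wholly within exons, which the tables do not show. In the 9 libraries, the median circRNA with a peak was covered over 53.3% to 68.1% of its predicted length. A peak that reaches an end of its own circRNA was common, with 294 of the 418 peaks (70.3%) found in all control and all E. coli wells but no S. aureus well. Shared borders were common too, with 334 of these 418 peaks (79.9%) having the same borders in all 6 wells. Of the ARID1A peaks, both had shared borders and the junction-side peak alone reached an end of the circle.

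Junction reads of the ARID1A circRNA were highest in the control wells. They numbered 16, 9 and 3 in control wells 1, 2 and 3, then 0, 2 and 0 in the S. aureus wells and 2, 0 and 2 in the E. coli wells. Every control well therefore lay above every treated well in raw reads, although control well 3 exceeded the highest treated wells by 1 read. With 34 reads in all, the circle ranked 6 of 3914 by total junction reads. It was seen in 6 wells, and only 23 circRNAs (0.588%) were seen in that many or more. In control well 1 it had more junction reads than any other circRNA of the library, and in control well 3 it ranked 135. These raw counts also depend on the junction reads of the whole library, which were fewer in the treated groups. Neither the number of cells nor the amount of the circle per cell was measured in these bulk libraries.

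The treated libraries held fewer junction reads of any kind, and on a scale that allows for this the wells of the groups overlapped. The libraries held 1529 to 2057 junction reads in the control group, 361 to 402 in the S. aureus group and 909 to 962 in the E. coli group. Per 1000 junction reads of the library, ARID1A had 10.5, 5.25 and 1.46 in control wells 1, 2 and 3. S. aureus well 2 reached 5.54 from its 2 reads, above control wells 2 and 3. E. coli wells 1 and 3 had 2.18 and 2.2, above control well 3 and below the others. The wells without a read do not exclude such levels, since a count of 0 (3 reads as the limit) allows up to 7.81 and 7.46 per 1000 in S. aureus wells 1 and 3 and up to 3.12 in E. coli well 2.

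**Figure D2:**
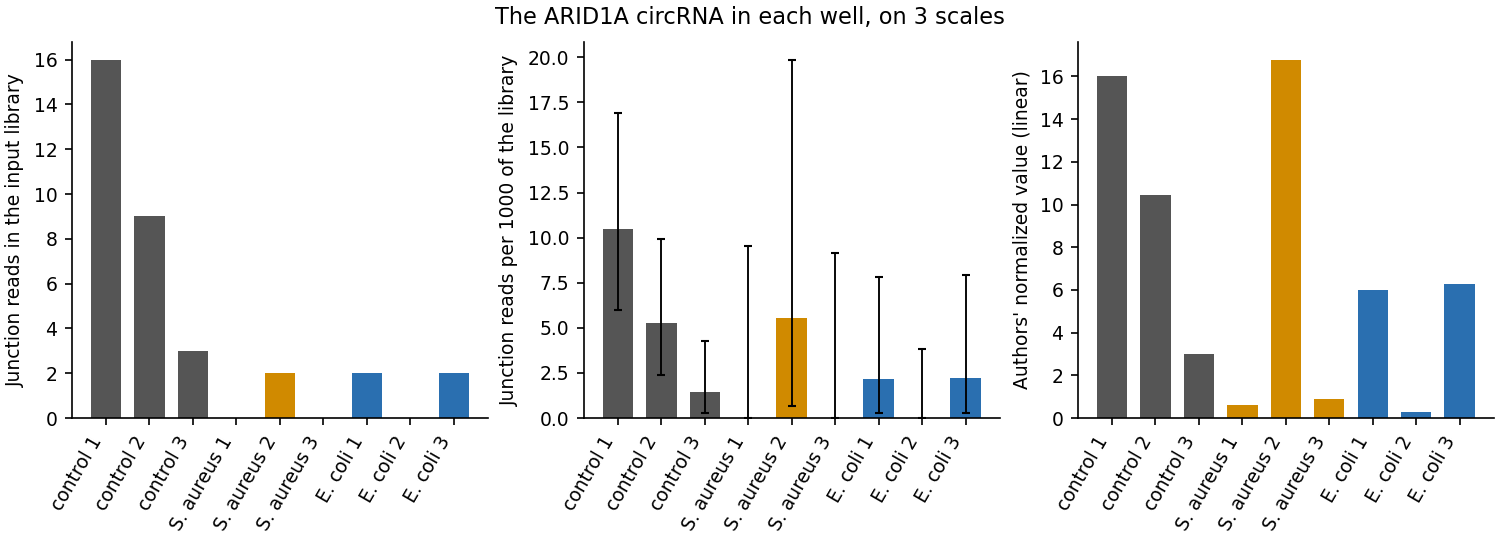
The ARID1A circRNA in each of the 9 input libraries. The bars give junction reads (left), junction reads per 1000 junction reads of the library with 95% exact binomial intervals for counting error (middle), and the authors' normalized value turned from log2 to the linear scale (right). Control well 1 is the highest on the first 2 scales, whereas S. aureus well 2, with 2 reads, is the highest on the third. At the wells without a read the bars of error end at the 2-sided bounds of 9.56, 9.13 and 3.83 per 1000, above the limits of 3 reads.

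Pooled over wells, the control group had 28 ARID1A reads of 5300 junction reads, or 5.28 per 1000 (95% exact binomial interval 3.51 to 7.63). The S. aureus group had 2 of 1147, or 1.74 per 1000 (0.211 to 6.28), and the E. coli group 4 of 2790, or 1.43 per 1000 (0.391 to 3.67). The control rate was thus 3.03 times that of the S. aureus group (exact interval 0.764 to 26.2). It was 3.68 times that of the E. coli group (1.29 to 14.5). These intervals describe the counting error of pooled reads only. They are no test of a difference between the groups, since ARID1A was chosen with these reads known. The control wells themselves spanned 1.46 to 10.5 per 1000. Their mean was 5.72 ± 4.52 (SD, n = 3), against 1.85 ± 3.20 and 1.46 ± 1.26 (SD, n = 3 each) in the S. aureus and E. coli wells. In raw reads without this scaling the ratios were 14 and 7, so the scale moved both.

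Complete separation of the wells in raw reads was frequent among circRNAs. Of the 79 circRNAs that had 2 or more reads in 3 or more input libraries, 24 (30.4%) had all control wells above all S. aureus wells in raw reads, and 10 (12.7%) had all control wells above all E. coli wells. The ARID1A circle belonged to both sets. Per 1000 junction reads, 17 (21.5%) and 7 (8.86%) were separated in this way, and the ARID1A circle was in neither set.

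In the edgeR fit over all 9 input libraries (quasi-likelihood, TMM normalization), the fitted log2 difference of ARID1A was -2.67 (SE 1.47) for S. aureus against control and -2.51 (SE 1.31) for E. coli against control. The median of all 79 circRNAs in the same fit was -1.88 for S. aureus and -0.37 for E. coli. ARID1A therefore lay 0.79 log2 units below the median of these 79 circRNAs after S. aureus (-0.79) and further below it after E. coli (-2.14). The distance after S. aureus was smaller than the SE of the ARID1A value. No interval was computed for either distance, and the contrast between them was not tested. The 79 passed a filter on read counts and do not stand for all circRNAs. Without TMM, scaled to total junction reads alone, its log2 differences were -1.61 and -1.88, the medians -0.74 and 0.22, and the distances from the median -0.86 and -2.11. The median over circRNAs of the change in their own value, with TMM minus without, was -0.97 and -0.50, and the distance of ARID1A from the median moved far less.

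On the authors' normalized scale the order of the wells was another one. The authors multiplied each count by a factor of its library, 1 to 1.16 in the control group, 6.33 to 8.87 in the S. aureus group and 2.87 to 3.15 in the E. coli group, entered 0 reads as 0.1 and took the log2. The 16 reads of control well 1 became a log2 value of 4, and the 2 reads of S. aureus well 2 became 4.07, the highest ARID1A value of any well. The other control wells had log2 values of 3.38 and 1.59, E. coli wells 1 and 3 had 2.58 and 2.65, and the wells without a read had -0.66, -0.17 and -1.80. On the linear form of this scale the mean of the control wells was 1.61 times that of the S. aureus wells and 2.34 times that of the E. coli wells. Here the mean of the S. aureus group rested on well 2, with 16.8 against 0.633 and 0.887. As means of the log2 values, control wells exceeded S. aureus wells by 1.91 and E. coli wells by 1.84, where the wells without a read rest on the entry of 0.1.

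The ARID1A peaks were among the strongest of every library that had them. Of all 1694 merged peaks, 418 (24.7%) were called in all control and all E. coli wells and in no S. aureus well, and both ARID1A peaks had this pattern, which was the reason for choosing the gene. The fold enrichment of the inner peak was 234, 229 and 151 in control wells 1, 2 and 3 and 171, 323 and 185 in E. coli wells 1, 2 and 3. The control and E. coli wells overlapped, and E. coli well 2 was the highest of the 6. Its rank by fold enrichment within the library was 4, 2 and 4 of 1138 to 1358 peaks in the control wells and 3, 2 and 8 of 645 to 857 peaks in the E. coli wells.

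The junction-side peak was weaker than the inner peak in all 6 wells. Its fold enrichment was 171, 96.4 and 87.7 in the control wells and 127, 121 and 160 in the E. coli wells, again with overlap between the groups. Its mean was 118 ± 45.8 over the control wells and 136 ± 20.7 over the E. coli wells (SD, n = 3 each). It ranked 7, 24 and 10 in the control libraries and 8, 17 and 10 in the E. coli libraries. Among the 418 peaks of the same pattern, the inner peak ranked 2 by mean fold enrichment in both groups, and the junction-side peak 6 in the control and 5 in the E. coli group, where the medians of the 418 were 34.9 and 39.6.

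**Figure D3:**
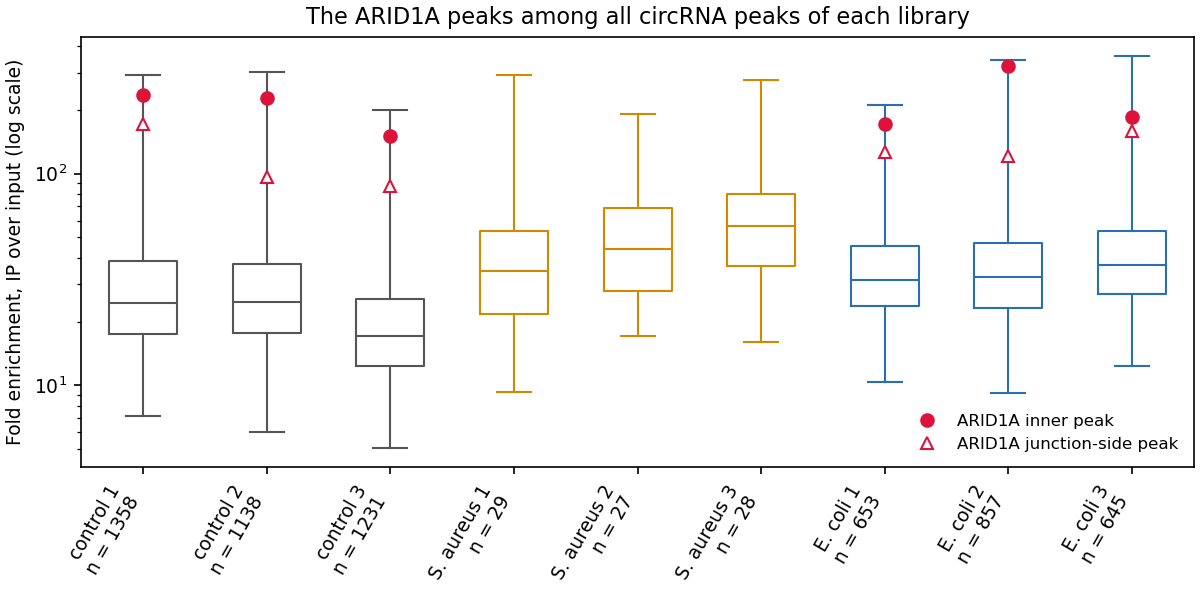
Fold enrichment (IP over input, log scale) of all circRNA peaks in each IP library. Boxes give the quartiles, the line the median and the whiskers the full range, with the number of peaks under each well, and red symbols mark the ARID1A peaks. The ARID1A inner peak lies near the upper end in all 6 control and E. coli libraries and no ARID1A peak was called in the S. aureus libraries, which had 27 to 29 peaks each.

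The inner peak exceeded the junction-side peak by 1.37, 2.38 and 1.72 times in the control wells and by 1.34, 2.67 and 1.16 times in the E. coli wells. The mean ratio was 1.82 ± 0.510 over the control wells and 1.73 ± 0.825 over the E. coli wells (SD, n = 3 each), and the wells overlapped. Over 19 circRNAs with exactly 2 peaks in each of these 6 wells and none in the S. aureus wells, the median ratio of the stronger to the weaker peak was 1.78. ARID1A, with 1.78, was itself the middle one of the 19.

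Score separated the control and E. coli wells for the junction-side peak and not for the inner peak. The score, a scaled negative log10 of the p-value of the peak caller, was 3100 for the inner peak in all control wells, a value that 460 peaks of the series shared, and 2704, 3100 and 2860 in the E. coli wells. For the junction-side peak it was 3100, 2589 and 1961 in the control wells and 523, 847 and 596 in the E. coli wells, so that all E. coli wells lay below all control wells. This was the rule among the 418 peaks, of which 317 (75.8%) had lower scores in all E. coli wells than in any control well. By fold enrichment, 6 (1.44%) were lower and 41 (9.81%) higher in all E. coli wells, and neither ARID1A peak was among them.

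As absolute values, the false discovery rates of the ARID1A peaks moved in opposite directions. For the inner peak the rate was 13.9%, 23.3% and 18.6% in the control wells and 43.0%, 27.4% and 39.8% in the E. coli wells, higher in every E. coli well. For the junction-side peak it was 13.9%, 22.9% and 19.8% in the control wells and 10.8%, 9.54% and 11.5% in the E. coli wells, lower in every E. coli well. A lower rate in all E. coli wells was found for 321 of the 418 peaks (76.8%), and a higher rate for 21 (5.02%), the inner peak of ARID1A among them. The inner peak thus had one of the highest fold enrichments and, in the E. coli libraries, one of the highest false discovery rates, above those of at least 96.1% of the peaks listed there or equal to them. Rates were lower there in general, with library medians of 3.05% to 4.46% against 23.5% to 42.5% in the control libraries. Counted from the lowest rate of its library upward, the junction-side peak stood at 81.5%, 85.3% and 80.2% of the list in E. coli wells 1, 2 and 3. In the control wells it stood at 5.67%, 0.703% and 15.2%, and the inner peak at 5.67% to 7.03%. Relative to their libraries, the rates of both peaks were thus higher in the E. coli wells.

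**Figure D4:**
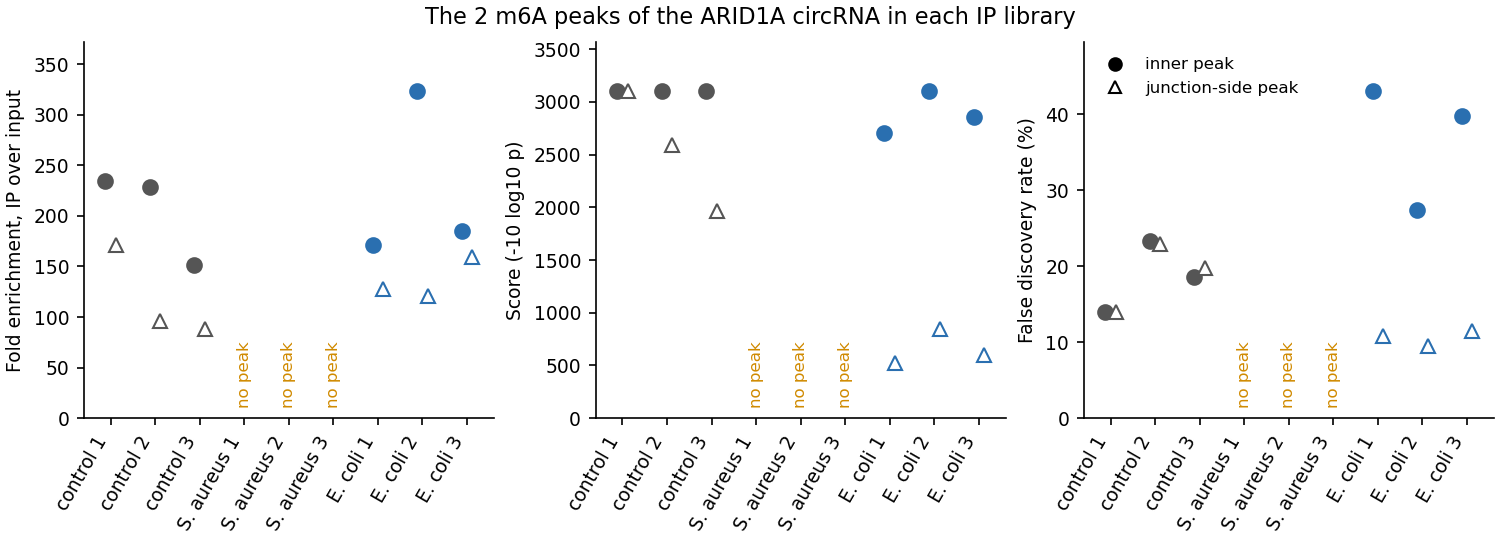
Fold enrichment (left), score (middle) and false discovery rate in percent (right) of the ARID1A inner peak (filled circles) and junction-side peak (open triangles) in each IP library. Each symbol is 1 library. Fold enrichments of control and E. coli wells overlap, the scores of the junction-side peak fall from 1961 to 3100 in control wells to 523 to 847 in E. coli wells, and no peak was called in the S. aureus wells.

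In the S. aureus libraries no peak was called on ARID1A or elsewhere within the span of the circle. These libraries listed 28 ± 1 peaks (SD, n = 3) against 1242 ± 110 per control library and 718 ± 120 per E. coli library, with fold enrichments up to 292. Signal under the calling limit was not analysed here, so the absence of a call gives no methylation level. S. aureus well 2 had 2 ARID1A junction reads in its input library and no peak.

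Set beside the junction reads, the peaks of ARID1A ran in the same order over the control wells. The E. coli wells, with 2, 0 and 2 reads, gave no such order, since wells 1 and 3 were tied. In control wells 1, 2 and 3, with 16, 9 and 3 reads, the fold enrichment was 234, 229 and 151 for the inner peak and 171, 96.4 and 87.7 for the junction-side peak. Peaks of the whole library were also weakest in control well 3, with medians of 24.6, 24.6 and 17.1 in these wells. The strongest peak of PTPN12, another host gene, fell in the same order, with 46.8, 38.6 and 30.9. A link between reads and peak strength was not tested. E. coli well 2, without a read, had the highest inner peak of its group, 323, and the lowest junction-side peak, 121. The authors enriched circRNA with a kit before the libraries were made, and how much linear RNA remained was not analysed here. The peak tables hold no junction reads, so within a peak any remaining fragments of the linear ARID1A transcript, which shares exons with the circle, cannot be told apart from those of the circle.

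ARID1A had more junction reads than the other circRNAs with at least 2 peaks in each of the same wells. Of the 1086 circRNAs with a peak in any library, 60 (5.52%) had at least 2 peaks in every control and every E. coli well and none in an S. aureus well. Their median was 2 junction reads over all 9 wells, 27 had a single read, and 32 had no read in any control well. ARID1A, with 34 reads, was the only one of the 60 (1.67%) with a read in all 3 control wells. This restates the choice of the gene, which was made by its junction reads and this pattern of peaks. The share of all circRNAs with such reads was not counted. The next by this count was SMAD1, which encodes a signal transducer of BMP receptors, with reads in 2 control wells and 3 reads in all, and the next by reads were RDX, which encodes the actin linker radixin, and SPEN, a transcriptional corepressor gene, with 5 each. These genes, ARID1A included, were picked after their values had been seen.

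A peak was about as frequent among the circRNAs with the most junction reads as among all circRNAs. Of the 20 with the most reads, 6 had a peak in any library, as had 1086 of all 3914 (27.7%), and 4 had one in 6 libraries. The share of all circRNAs with a peak in 6 libraries was not counted, so these 4 cannot be called many or few. Beside ARID1A the 4 were those of RNF111, a ubiquitin ligase gene (60 reads), SAMD4A, an RNA-binding repressor gene (25 reads), and NSD2, a histone methyltransferase gene (18 reads). The circRNAs of TMEM132D (42 reads) and LMO7 (41 reads), both with more reads than ARID1A, had no peak in any library.

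Some other subunits of the SWI/SNF complexes gave circRNAs as well. Of 30 other subunit genes, 5 (16.7%) had a circRNA, 7 circles with 23 junction reads in all, against 9.67% of 21666 protein-coding gene symbols of the RefSeq annotation. All 5 had a peak in at least 1 library, against 40.5% of all 2220 host genes, and 3 had one in every control and every E. coli well, against 15.4%. None had one in an S. aureus well, where only 1.35% of host genes had any. The partners with the ARID1A pattern of calls were SMARCC1, BRD7 and BCL11B.

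SMARCC1 encodes a core scaffold subunit of all SWI/SNF complexes, and its circle of 1518 bases was the nearest to ARID1A in peak strength. Its strongest peak had a fold enrichment of 81.2, 95.8 and 54.3 in the control wells and 73.8, 104 and 36.3 in the E. coli wells, with 4 or 5 peaks per library. Its only junction reads were 2 in S. aureus well 1 and 2 in S. aureus well 3, wells in which no SMARCC1 peak was called. In that it differed from ARID1A, whose reads were mostly in control wells.

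BRD7, a bromodomain subunit of the PBAF complex, had 1 junction read, in S. aureus well 1, and its strongest peak had a mean fold enrichment of 39.3 ± 11.1 over the control wells and 40.3 ± 3.49 over the E. coli wells (SD, n = 3 each). BCL11B, a zinc finger transcription factor that joins BAF complexes, had 2 reads in each control well, 1 read in S. aureus well 3, and 2 and 1 reads in E. coli wells 2 and 3. Its single peak had a mean fold enrichment of 30.7 ± 11 over the control wells and 53.4 ± 32.8 over the E. coli wells (SD, n = 3 each), and the wells overlapped. BCL11B was the only partner with enough reads for the fit over host genes. Its log2 difference was -1.72 (SE 2.03) for S. aureus against control (edgeR, adjusted p = 0.555) and -0.67 (SE 1.70) for E. coli against control (edgeR, adjusted p = 0.957), so no difference was found at this depth. These p-values measure only the spread between replicate wells of 1 cell line.

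The remaining partners had reads and a peak in control wells alone. ARID1B, the close relative that takes the place of ARID1A in some BAF complexes, had 2 circles with 1 junction read each, in control wells 2 and 3, and 1 peak, with a fold enrichment of 16.7 in control well 2. PHF10, a PBAF subunit, had 6 reads in control well 3 and a peak of 12.8 in control well 2. The strongest ARID1B peak was thus far below the 229 of ARID1A in the same library.

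**Figure D5:**
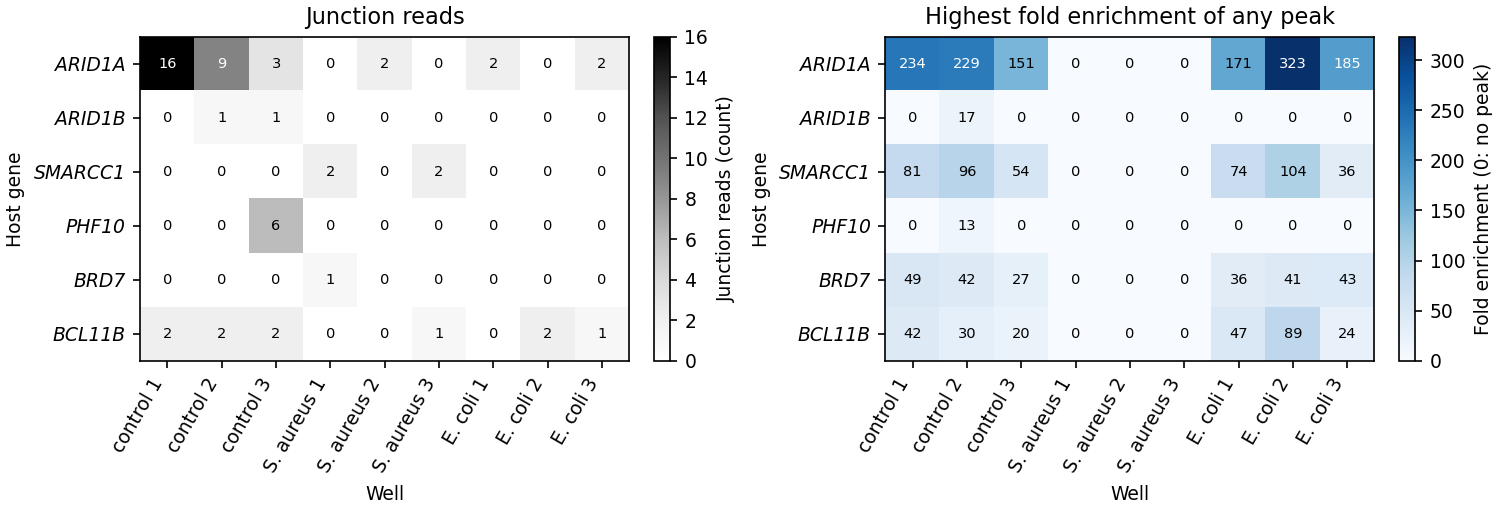
Junction reads (left) and highest fold enrichment of any peak (right, with 0 where no peak was called) for ARID1A and the 5 SWI/SNF partner genes with a circRNA, by well. The numbers in the cells are the plotted values. ARID1A has the highest fold enrichment in every control and E. coli well, and no gene has a peak in the S. aureus wells.

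Over the 205 host genes tested with edgeR, 1 was lower after S. aureus at an adjusted p under 0.05 (0.488%), MED17, which encodes a Mediator subunit (log2 difference -2.77, SE 0.490), and 0 were higher. This call was lost without TMM, without the filter on low counts and without control well 1, and without TMM the only call was SCEL, which encodes sciellin, higher. At an unadjusted p under 0.05, 38 host genes (18.5%) were lower and 1 was higher after S. aureus. After E. coli, 0 were called in either direction at that limit, 15 (7.32%) were lower and 1 (0.488%) higher at an unadjusted p under 0.05, and DESeq2 also called 0. Over the 79 single circRNAs, edgeR and DESeq2 called 0 in either comparison, while 13 (16.5%) after S. aureus and 6 (7.59%) after E. coli were lower at an unadjusted p under 0.05 in edgeR, and 0 and 1 (1.27%) were higher. These unadjusted counts depended on the scaling, since without TMM 2 circRNAs and 3 host genes were lower after S. aureus, and 0 and 5 were higher.

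Many host genes shared the pattern of ARID1A peaks over the libraries. Of 664 host genes with a peak in at least 3 IP libraries, 326 had one in all control and E. coli wells and in no S. aureus well. Over the 9 IP libraries, the log2 of the highest fold enrichment plus 1 correlated most closely with that of ARID1A for PTPN12, a tyrosine phosphatase gene (Pearson's r = 0.9996), EPB41L1, a membrane skeleton gene (0.999), RANBP9, a scaffold protein gene (0.999), the gene annotated as MIR2297 (0.999) and TAF3, a subunit of the general factor TFIID (0.999). The 3 S. aureus libraries, at 0 for all of them, carry most of this likeness, and the lowest r of any of the 326 was 0.937. Over the 6 libraries with peaks alone, r was 0.945, 0.841, 0.797, 0.920 and 0.784. The strongest peaks of PTPN12 reached 30.9 to 51.3, well below those of ARID1A.

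Markers could check the cell type only weakly in tables of circRNAs. Of 13 mammary epithelial marker genes, CDH1, GRHL2 and TP63 had a circRNA, each in 1 well, with 12 junction reads together, and the others, keratins included, had none. Of 14 markers of fibroblasts, endothelial cells and leukocytes, 0 had a circRNA. Only 9.67% of protein-coding gene symbols had one, so lists this short cannot tell the cell types apart.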

How the data were processed

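The submitters' processing notes name cutadapt 1.9.3, STAR 2.5.1b and the build bosTau9, and the authors called circRNAs with DCC. They deposited back-splice junction counts of the 9 input libraries with normalized log2 values (edgeR 3.16.5 is named), and, for each of the 9 IP libraries, peaks each with a fold enrichment ratio, a false discovery rate in percent and a score. The peak names point to MACS, and its version and its use of the strand are not given in the sources used here. The log2 values were only described.

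Rows were taken by gene name, and positions were counted from 1. Peaks on the same strand sharing at least 1 base were merged across libraries. Counts were tested with edgeR 4.0.16 (R 4.3.3, 1 fit over 3 groups, group as the only term, TMM, Benjamini-Hochberg) per circRNA and per host gene that had 2 or more reads in 3 or more libraries, with DESeq2 1.42.0 as an alternative. The script was tested on simulated data of greater depth and less spread than these libraries. The gene and the lists were chosen with earlier results of these data known. Named are all ARID1A rows, SWI/SNF partners with a circRNA and the 5 host genes with the highest r. Intervals are exact (scipy 1.17.1) and cover counting error only.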

Additional observations from a re-analysis of the deposited data

How the results depend on the processing

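Both ARID1A log2 differences stayed below 0 in every alternative that could be fitted. The alternatives reuse the same reads of a gene chosen with its values known, so they are not independent of each other. For S. aureus against control the value was -1.61 (SE 1.41) without TMM. With 1 well left out it ranged from -3.15 (SE 1.72) to -1.86 (SE 1.65), the latter without control well 1. Without S. aureus well 2 no ARID1A read was left in that group and no value was given. For E. coli against control the log2 difference ranged from -2.98 (SE 1.55) to -1.52 (SE 1.51) with 1 well left out, the latter again without control well 1. The ratio of raw reads, control over treated, ranged from 9 to 18.8 for S. aureus and from 4.5 to 9.38 for E. coli with 1 well left out. Per 1000 junction reads, as the ratio of group means, it was 3.10 and 3.92, and on the authors' normalized values, an alternative added after the data had been seen, 1.61 and 2.34. A limit of 15% on the false discovery rate left 0.667 ARID1A peaks per control well and 1 per E. coli well in place of 2 each, and the control peaks left were both in control well 1. The number of merged peaks with the ARID1A pattern was 228 in place of 418 with peaks limited to a fold enrichment over 21.8, the control median, and 418 to 492 with 1 well left out. Of host genes lower after S. aureus, 0 in place of 1 (MED17) were called without TMM and with no filter on counts, and 0 to 1 with 1 well left out (0 without control well 1). Without TMM, 1 host gene, SCEL, was called higher in place of 0. The well number was not shown to pair the wells, since correlations of same-numbered wells ranged from -0.09 to 0.10. With a replicate block for that number, 1 host gene was called lower after S. aureus and 0 in the other comparisons, as without it, and the ARID1A log2 differences were -2.51 and -2.13. The 34 junction reads of ARID1A over 9 wells limit the precision of all these values.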
